A study of Rattus norvegicus with 15 samples.

Results

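The 10 genes described here encode factors that make, fuse, divide and remove mitochondria. They were taken by gene symbol from the deposited table, in which each symbol had 1 row, and all 10 were among the 17201 genes tested of 37991 in the table. RNA of the multifidus, a deep muscle along the spine, was sequenced from wild type male Sprague Dawley rats. Their age was given as 12 weeks, in the study's methods at the division into groups. Control rats had no injury (2 libraries). The other 4 groups shared a hemilaminectomy with ligation of the left L5 spinal nerve. Surgery rats received nothing more (2 libraries). The pMT group received human plasma-derived mitochondria (pMT), 25 µg per site and 50 µg per rat (4 libraries). The VitD group received cholecalciferol, 150 µg per site and 300 µg per rat (3 libraries), and the pMT/VitD group received both at these doses (4 libraries). The pMT were injected on day 14 after surgery and tissue was taken on day 28 in the Control, Surgery and pMT groups, while the days of the groups with VitD were not given in the sources used here. The mitochondria were of another species, and both sites lay in the left paraspinal muscle.

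Mitochondria in muscle fibres form a network that is remodelled continually. Its growth is driven by nuclear transcription factors such as Nrf1 and the oestrogen-related receptor Esrra, which act with the coactivator Ppargc1a on genes of the respiratory chain and on Tfam, the factor that packages and transcribes mitochondrial DNA. The GTPases Mfn1 and Mfn2 join outer membranes and Opa1 joins inner membranes. The GTPase Dnm1l divides the organelle, and Fis1 is an outer membrane protein of the fission machinery. Damaged mitochondria are cleared by mitophagy, for which the kinase Pink1 marks depolarised organelles and Bnip3 is a receptor induced by low oxygen.

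Total counts were 52342134 to 73557878 per library, so each of the 10 genes was counted well above the floor, from 438 counts for Nrf1 to 20293 for Bnip3. The tissue label held: the defining muscle genes Acta1, Ckm, Des and Tnnt3 were abundant in all 15 libraries. The 9 muscle fibre markers summed to between 93381 and 134320 TPM (the authors' expression level, scaled for length and depth). Between 10.7% and 22.6% of counts fell on the 13 protein genes encoded by mitochondrial DNA. By macrophage marker sum, replicates numbered 4 of pMT and of pMT/VitD each lay nearer the other group than their own. This sum was 289 TPM in pMT replicate 4, against 258 to 273 in pMT/VitD replicates 1 to 3. In pMT/VitD replicate 4 it was 422, against 406 to 420 in pMT replicates 1 to 3. Fibroblast and endothelial marker sums went the same way. The adipocyte sum of pMT/VitD replicate 4 did not, at 459 TPM against 664 to 707 in pMT replicates 1 to 3. The muscle fibre sum of pMT replicate 4, 93381 TPM, lay below every other library of these groups. The labels were kept, and results without both replicates numbered 4 are given below. The highest of the mitochondrial shares was in pMT replicate 4. VitD replicate 1 had the highest fibroblast marker sum, 2651.7 TPM against 1560.3 and 1797.9 in the other VitD libraries. No pair of libraries in a group agreed within counting noise, and the Surgery pair was the closest, with a mean chi-square of 4.88 per gene over 14817 genes. Whether libraries came from separate rats was not stated, so every p below measures the spread between these libraries.

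Per transcript length, the mitophagy genes were the most abundant. Mean TPM over the 15 libraries was 240.8 for Pink1 and 213 for Bnip3, then 129 for Fis1, 44.1 for Tfam, 35.7 for Esrra and 29.7 for Mfn1. It was 21.2 for Mfn2, 20.4 for Dnm1l, 17.4 for Opa1 and 4.15 for Nrf1. The Mfn2 row may hold only a part of the mitofusin 2 reads. A separate row named LOC100911485, described in the table as mitofusin-2-like, held 87.7% to 95.3% of the Mfn2 CPM in each library and followed Mfn2 with a Pearson correlation of 0.997. Together these rows reached 39.3 TPM, above Mfn1. Bnip3-ps1, a row named as a Bnip3 pseudogene, held 12% to 24.5% of the Bnip3 CPM and its correlation with Bnip3 was 0.63. Esrra overlaps the neighbouring gene Trmt112 in the GRCr8 annotation, and the use of strand in counting was not stated.

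RefSeq start sites of GRCr8 gave 300-base windows (250 bases before the start and 50 after) for 9 of the 10 genes. These coordinates belong to that build and not to rn6, on which the reads were aligned. The windows of the pairs whose levels ran most closely together, Pink1 with Esrra and Tfam with Fis1, are printed 5′ to 3′ on the strand of the gene, with motif matches in capitals. They lie at chr5:155825901-155826200 (reverse strand), chr1:213543256-213543555 (reverse strand), chr20:17355123-17355422 (forward strand) and, for the upstream start of Fis1, chr12:25359994-25360293 (reverse strand).
Pink1: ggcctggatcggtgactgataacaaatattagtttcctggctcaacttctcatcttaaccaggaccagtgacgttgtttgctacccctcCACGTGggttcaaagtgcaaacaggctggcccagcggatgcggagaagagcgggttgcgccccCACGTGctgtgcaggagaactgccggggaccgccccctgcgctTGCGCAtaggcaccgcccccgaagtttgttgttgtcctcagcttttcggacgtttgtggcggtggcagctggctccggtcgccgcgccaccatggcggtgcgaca
Esrra: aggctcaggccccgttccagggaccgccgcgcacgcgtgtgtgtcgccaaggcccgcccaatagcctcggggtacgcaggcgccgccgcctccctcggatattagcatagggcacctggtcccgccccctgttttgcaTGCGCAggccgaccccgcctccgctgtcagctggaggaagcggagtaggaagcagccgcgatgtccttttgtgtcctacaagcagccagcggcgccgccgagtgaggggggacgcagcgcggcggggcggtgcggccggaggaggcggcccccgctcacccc
Tfam: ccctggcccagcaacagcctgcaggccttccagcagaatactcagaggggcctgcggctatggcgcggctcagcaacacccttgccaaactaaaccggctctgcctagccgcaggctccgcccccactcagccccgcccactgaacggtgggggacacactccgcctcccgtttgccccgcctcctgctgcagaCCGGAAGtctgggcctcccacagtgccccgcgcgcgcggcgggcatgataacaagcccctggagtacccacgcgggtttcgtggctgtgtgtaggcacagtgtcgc
Fis1: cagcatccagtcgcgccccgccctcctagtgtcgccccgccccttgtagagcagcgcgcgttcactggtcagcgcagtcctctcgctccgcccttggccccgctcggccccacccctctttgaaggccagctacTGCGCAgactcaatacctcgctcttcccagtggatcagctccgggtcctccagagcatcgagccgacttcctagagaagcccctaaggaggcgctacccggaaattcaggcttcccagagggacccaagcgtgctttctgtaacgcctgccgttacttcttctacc
The motifs searched on both strands were TGCGCA (core of the Nrf1 site), CCGGAAG (Gabpa), AAGGTCA (oestrogen-related receptors), TGACGTCA (Creb), GTAAACA (Foxo) and ACGTG (hypoxia-inducible factors). TGCGCA, which reads the same on both strands, stood 55 bases before the Pink1 start, 112 before that of Esrra and 116 before that of Fis1, and 7.68% of 27457 promoters held it. CCGGAAG stood 56 bases before the Tfam start and 32 before the Mfn1 start, and just after a second Fis1 start that is not printed. It was in 9.22% of promoters. The 2 capital runs CACGTG of Pink1 match ACGTG on both strands at once, 160 and 97 bases before the start, and Bnip3 held the same run 98 bases before its start. ACGTG, which Opa1 also held, was in 19.7% of promoters. GTAAACA was found in the Dnm1l window and in 3.76% of promoters. AAGGTCA, held by 4.37% of promoters, and TGACGTCA, held by 1.91%, were in none of these windows. Nrf1 had no match of any of these motifs. These are matches of letters, not measured binding sites.

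Levels are given below as TMM-scaled CPM (counts scaled for depth and for the bulk of genes with edgeR's TMM factors, 0.849 to 1.20, but not for length), with the mean ± SD. Overlaps between groups are on this scale unless TPM is named. Across the 5 groups, 2 of the 10 genes passed edgeR's quasi-likelihood F-test at a Benjamini-Hochberg adjusted p under 0.05: Esrra (adjusted p = 0.0355) and Pink1 (adjusted p = 0.0414). Of all genes tested, 11.8% passed. The adjusted p was 0.148 for Fis1, 0.213 for Tfam and 0.304 for Bnip3, and it was higher for the other 5 genes. These 2 calls were not stable to the loss of libraries: leaving out single libraries gave between 0 and 2 called genes, at 6.38% to 16% of all genes. Both calls held without pMT replicate 4 or VitD replicate 3, only Esrra was called without Control replicate 2, pMT replicate 3 or pMT/VitD replicate 3, only Pink1 without VitD replicate 1, and neither without any other single library. Leaving out both replicates numbered 4 gave 4 (Esrra, Fis1, Pink1 and Tfam), at 29.8% of all genes.

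**Figure D1:**
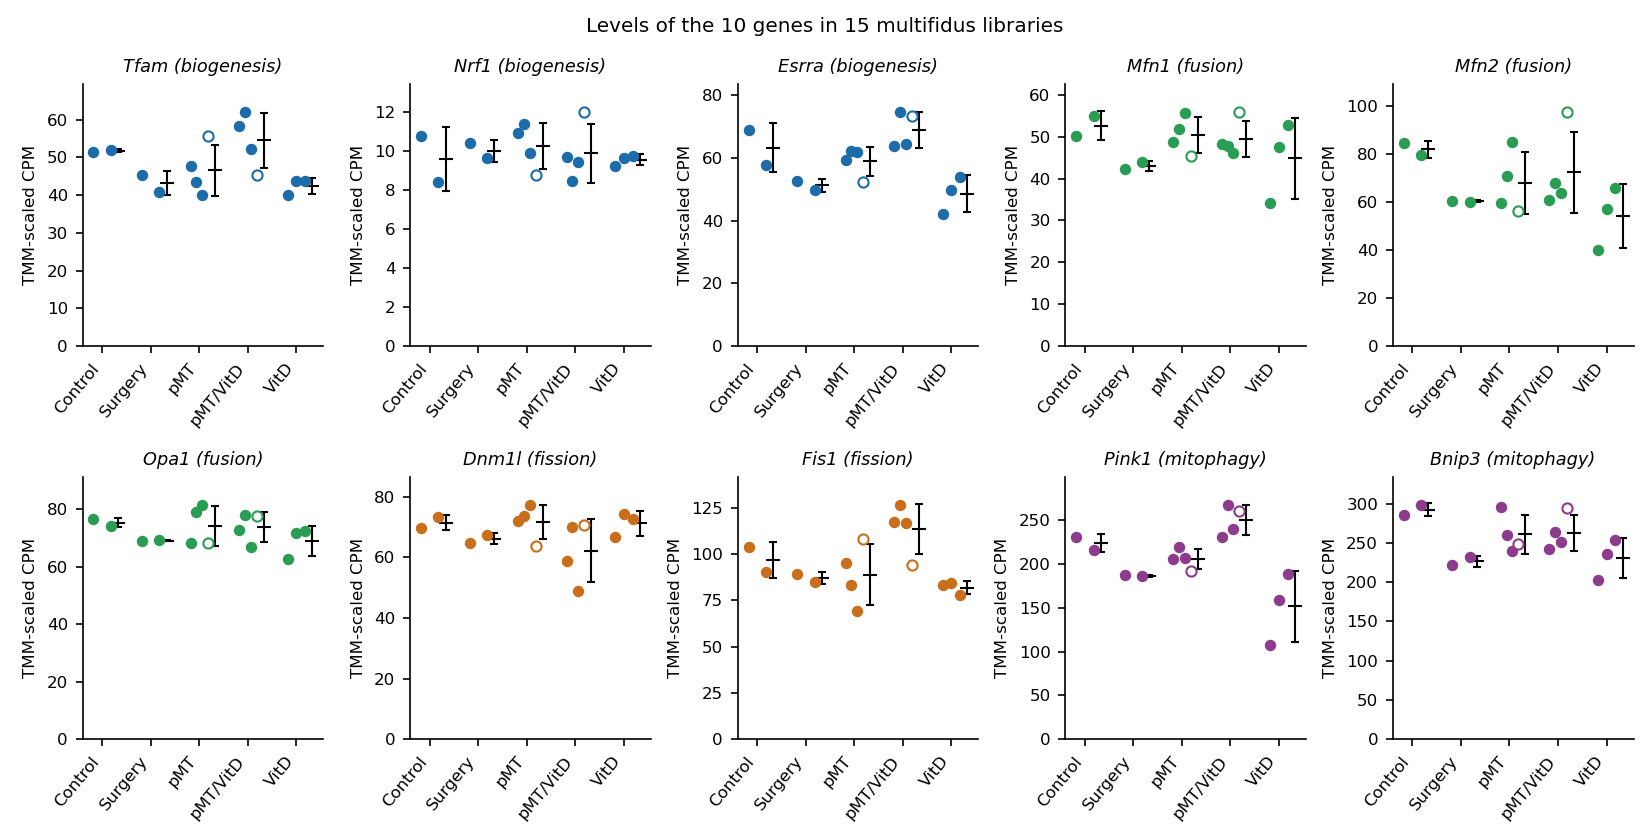
TMM-scaled CPM of each gene (y axis, from 0) in the 15 libraries by group (x axis), with 1 point per library, open points for replicates numbered 4, and a black mark with bars for the mean ± SD of the group. Pink1 in the pMT/VitD libraries sits between 230.5 and 267 CPM, above all VitD libraries, of which replicate 1 is at 107.

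Among the biogenesis genes, Esrra was highest in pMT/VitD. Its CPM was 63.6, 74.6, 64.5 and 73.2 in the pMT/VitD libraries and 42.1, 49.7 and 53.9 in the VitD libraries. It was 68.7 and 57.7 in Control, 52.6 and 49.8 in Surgery, and 59.3, 62.2, 61.9 and 52.3 in pMT. The pMT/VitD libraries thus lay above every Surgery, pMT and VitD library, and overlapped Control. The order of means was pMT/VitD (69.0 ± 5.71, n = 4), Control (63.2 ± 7.78, n = 2), pMT (58.9 ± 4.61, n = 4), Surgery (51.2 ± 2.0, n = 2) and VitD (48.5 ± 5.97, n = 3), and each neighbouring pair in that order overlapped.

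Tfam followed the same order of means. Its CPM was 58.3, 62.0, 52.2 and 45.4 in pMT/VitD, 51.5 and 52.0 in Control, 47.7, 43.3, 39.9 and 55.5 in pMT, 45.4 and 40.9 in Surgery, and 40.0, 43.6 and 43.8 in VitD. The library numbered 4 was the highest of pMT and the lowest of pMT/VitD. Nrf1, the least abundant of the 10, stayed between 8.43 and 12.0 CPM in all 15 libraries, and its group means lay between 9.55 ± 0.289 in VitD (n = 3) and 10.2 ± 1.17 in pMT (n = 4). All its groups overlapped.

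The fusion genes were highest in Control, and the next group in each order overlapped it. Mfn2 measured 84.7 and 79.7 CPM in Control and 60.7 and 60.2 in Surgery. In pMT it was 59.8, 70.9, 85.3 and 56.2, in pMT/VitD 60.8, 67.8, 63.7 and 97.6, and in VitD 39.9, 57.1 and 66.1. The 2 Control libraries lay above both Surgery libraries and all VitD libraries, while single pMT and pMT/VitD libraries reached or passed Control. Mfn1, the other outer membrane mitofusin, had means of 52.6 ± 3.45 in Control (n = 2), 50.4 ± 4.37 in pMT (n = 4), 49.5 ± 4.34 in pMT/VitD (n = 4), 44.9 ± 9.69 in VitD (n = 3) and 43.0 ± 1.18 in Surgery (n = 2), and 34.1 CPM in VitD replicate 1 was its lowest value. Opa1, the inner membrane GTPase, varied least of the 10 genes: its coefficient of variation over the 15 libraries was 7.2%, and its CPM ran from 62.8 to 81.4.

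The fission genes went different ways. Fis1 was 117, 126, 116 and 94.0 CPM in pMT/VitD and 83.3, 84.2 and 77.7 in VitD. In Control it was 104 and 90.1, in Surgery 89.4 and 84.7, and in pMT 95.0, 83.0, 69.3 and 108. Every pMT/VitD library was above every VitD and Surgery library, and the pMT libraries held the lowest of all 15 values and reached into the pMT/VitD range. Dnm1l was lowest in pMT/VitD, at 58.7, 70.2, 49.1 and 70.8 CPM, against 66.6, 74.3 and 72.9 in VitD, 69.8 and 73.2 in Control, 64.9 and 67.4 in Surgery and 71.9, 73.7, 77.3 and 63.8 in pMT. Its groups overlapped everywhere except Surgery with Control.

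Of the mitophagy genes, Pink1 had the widest range of the 10, 2.49-fold between its lowest and highest library. Its CPM was 230.5, 267, 240.1 and 261 in pMT/VitD, 230.5 and 216 in Control, 205, 219, 206 and 192 in pMT, 187 and 186 in Surgery, and 107, 159 and 188 in VitD. Both Surgery libraries lay below all pMT libraries, and all pMT libraries below all pMT/VitD libraries. The order of means was pMT/VitD (249.5 ± 17.1, n = 4), Control (223 ± 10.3, n = 2), pMT (206 ± 11.2, n = 4), Surgery (186 ± 0.760, n = 2) and VitD (151 ± 40.8, n = 3), of which only pMT and Surgery were neighbours without overlap. In TPM, the Pink1 means were 251 in Surgery, 252 in pMT and 251 in pMT/VitD, and these groups overlapped. Bnip3 was highest in Control, at 286 and 298 CPM, and lowest by mean in Surgery, at 222 and 232. The means were 263 ± 22.9 in pMT/VitD (n = 4), 261 ± 24.4 in pMT (n = 4) and 230.5 ± 25.7 in VitD (n = 3), with all neighbours overlapping.

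Surgery was compared with Control to ask what the operation itself did. No gene of the 10 was called, although 9 of the 10 had a lower fitted level after surgery and a median log2 fold change of -0.26, against -0.01 over all 17201 genes. Bnip3 was the only one with an unadjusted p under 0.05 (log2 fold change -0.37, SE 0.15, adjusted p = 0.23, quasi-likelihood test). Of all 17201 genes, 2923 had such a p. Mfn2 gave the largest estimate, -0.44 (SE 0.25, adjusted p = 0.402), with an interval from -0.99 to 0.10. In total 9 of the genes, all but Nrf1, had both Surgery libraries below both Control libraries, and 34.4% of all genes did so. In TPM, where the median of all genes was 0.30, only Mfn2 did. Opa1, Dnm1l, Fis1 and Pink1 then had both Surgery libraries above both Control libraries. The background of calls was 1.55%. DESeq2 called none of the 10 and limma voom with sample quality weights called 5 (Bnip3, Esrra, Mfn1, Mfn2 and Tfam), all lower, while over all genes these tools called 5.64% and 28.7%. With the counts of its copy added, Mfn2 was at -0.42 (adjusted p = 0.408). Markers of other cells moved with this comparison: the 7 macrophage markers summed to 346 and 335 TPM in Control and to 794 and 791 in Surgery, and the 5 fibroblast markers to 955 and 1010 and to 1725 and 1758. Their part in the result was not tested.

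pMT was compared with Surgery to ask what the injection of pMT added. Surgery rats received no injection, so the mitochondria cannot be told apart from the injection and its buffer. Fitted levels of all 10 genes were higher with pMT, with a median log2 fold change of 0.13 against 0.02 over all genes. None of the 10 was called (background 1.94%). An unadjusted p under 0.05 was found for 0 of the 10 and for 2455 of all 17201 genes. Mfn1 had the largest estimate, 0.23 (SE 0.15, adjusted p = 0.552), with an interval from -0.09 to 0.55. Esrra and Bnip3 had 0.20 each and Pink1 0.14. The intervals of the 10 genes reached at most 0.64, so larger increases lay outside them. All pMT libraries were above both Surgery libraries for Mfn1, Pink1 and Bnip3, as for 13.2% of all genes. In TPM, where the median of all genes was -0.13, this held for none of the 10. Under the rule of the study's methods, which asks of edgeR's exact test a p under 0.05 and a 2-fold change or more, 0 of the 10 genes and 4.04% of 16609 genes were called, and the largest fold change among the 10 was 1.16, for Mfn1. DESeq2 called none of the 10 in this comparison and 4.39% of all genes, and limma voom called 5 (Bnip3, Esrra, Mfn1, Opa1 and Pink1) and 37.7% of all genes. Macrophage marker sums were 289 to 420 TPM in pMT and 791 to 794 in Surgery, and fibroblast sums 775 to 1351 and 1725 to 1758, and their part in the result was not tested.

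VitD alone against Surgery gave 0 called genes of all 17201 (background 0%), with 139 genes and none of the 10 at an unadjusted p under 0.05. DESeq2 called 1 gene (0.00405%) and limma voom 405 (2.35%), none of them among the 10. The estimates were small, from -0.30 (SE 0.18) for Pink1 to 0.11 (SE 0.15) for Dnm1l. Fis1 was the only one of the 10 with every VitD library below both Surgery libraries, as were 8.15% of all genes. In TPM this held only for Nrf1, and Dnm1l was higher in every VitD library.

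The combination against Surgery gave 8 of the 10 genes a higher fitted level and none was called in the quasi-likelihood test, where 7.44% of all genes were. Esrra came nearest, with a log2 fold change of 0.43 (SE 0.13, adjusted p = 0.0545), then Pink1 with 0.42 (SE 0.17, adjusted p = 0.146). Fis1 had 0.38 (SE 0.16, adjusted p = 0.16) and Tfam 0.34 (SE 0.14, adjusted p = 0.159). These 4 of the 10 had an unadjusted p under 0.05, as had 4268 of all 17201 genes. All pMT/VitD libraries lay above both Surgery libraries for 6 genes (Esrra, Mfn1, Mfn2, Fis1, Pink1 and Bnip3), as for 16.6% of all genes. In TPM, where the median of all genes was -0.42, this held for none of the 10. Opa1 and Dnm1l were then lower in every pMT/VitD library. DESeq2 called Esrra (13.1% of all genes called), and limma voom called Esrra, Fis1, Pink1 and Tfam (39.5%). Leaving out both replicates numbered 4 called Esrra, Fis1 and Tfam (20.1%). Esrra was also called without pMT replicate 4, VitD replicate 1 or VitD replicate 3, and Pink1 without VitD replicate 1, where between 8.32% and 11.8% of all genes were called. Macrophage marker sums were 258 to 422 TPM in pMT/VitD and fibroblast sums 636 to 1123, both below the Surgery sums given above, and their part in the result was not tested.

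Adding VitD to pMT called none of the 10 and none of all genes in the quasi-likelihood test (background 0%), with 1737 genes at an unadjusted p under 0.05. Over all genes DESeq2 called 91 (1.3%) and limma voom 6617 (38.5%). Of the 10, Fis1 (0.35, SE 0.13, adjusted p = 0.452) and Esrra (0.23, SE 0.10, adjusted p = 0.489) were below that unadjusted level. Esrra and Pink1 were higher in every pMT/VitD library than in every pMT library, as were 2.46% of all genes. In TPM, where the median of all genes was -0.30, none of the 10 was. Without both libraries numbered 4, Fis1 and Tfam were called, with 3136 calls among all genes (18.3%). Of the 10, DESeq2 called none and limma voom called Dnm1l, Fis1, Nrf1 and Tfam.

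The clearest difference lay between the combination and VitD alone. In pMT/VitD, 3 of the 10 genes rose: Pink1 1.65-fold (log2 0.72, SE 0.15, interval 0.40 to 1.04, adjusted p = 0.00491), Esrra 1.42-fold (log2 0.51, SE 0.11, interval 0.27 to 0.74, adjusted p = 0.00629) and Fis1 1.39-fold (log2 0.47, SE 0.14, interval 0.17 to 0.78, adjusted p = 0.0289, quasi-likelihood test). This comparison had 21.9% of all genes called and 9.66% called as higher. DESeq2 called Tfam with these 3 genes (26.7% of all genes called), and limma voom called them with Tfam and Dnm1l (48.9%). With only the 2 groups in the fit, Pink1 and Esrra were called and Fis1 was not (adjusted p = 0.052), at 11.3% of all genes. Tfam missed the threshold narrowly (log2 0.36, SE 0.12, adjusted p = 0.0523), and Mfn2 had a similar estimate with a wider error (0.42, SE 0.20, adjusted p = 0.144). Bnip3 (0.19, SE 0.12), Mfn1 (0.14, SE 0.13), Opa1 (0.10, SE 0.10) and Nrf1 (0.05, SE 0.13) were higher by estimate only, and Dnm1l was the single lower one (-0.20, SE 0.12). Tfam, Esrra, Fis1 and Pink1 had every pMT/VitD library above every VitD library, as had 13% of all genes. In TPM none of the 10 had, and Dnm1l was lower in every pMT/VitD library. In the quasi-likelihood fit, the median log2 fold change of the 10 was 0.28, against 0.00 over all genes.

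**Figure D2:**
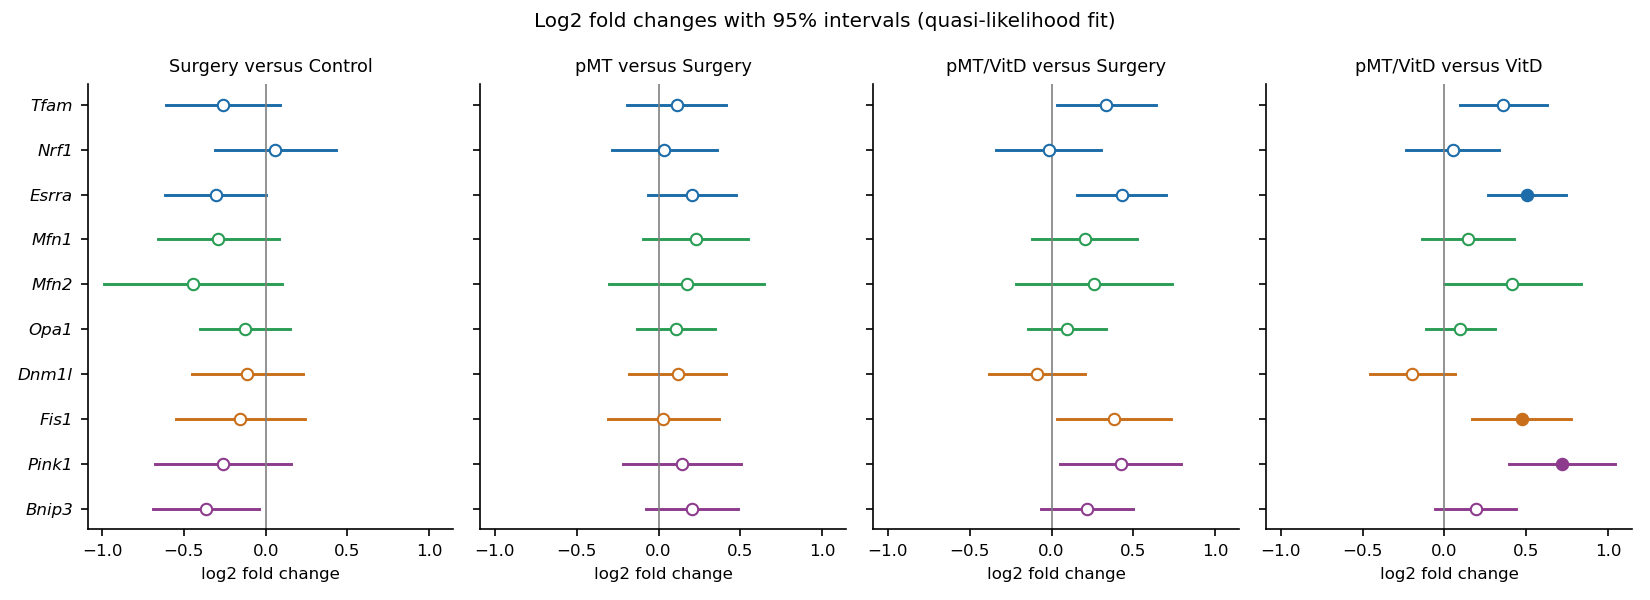
Log2 fold change (x axis) of each gene (y axis) in 4 comparisons, as points with 95% intervals from the quasi-likelihood fit, filled where the adjusted p is under 0.05 and coloured by role. Filled points are seen only for Esrra, Fis1 and Pink1 in pMT/VitD versus VitD, while in pMT versus Surgery all 10 points lie above 0 (5 when scaled to library size alone) with intervals that include it.

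VitD replicate 1 was the lowest of the 15 libraries for 6 of the genes (Pink1, Mfn2, Mfn1, Esrra, Opa1 and Bnip3). Without it, the log2 fold change was 0.52 (adjusted p = 0.00901) for Pink1, 0.41 (adjusted p = 0.0314) for Esrra and 0.49 (adjusted p = 0.0728) for Fis1. Pink1 and Esrra were called with any single library left out, and Tfam was called too without pMT replicate 3, pMT replicate 4 or pMT/VitD replicate 4, while 10.9% to 26.5% of all genes were called. Fis1 lost the call without any 1 of VitD replicates 1, 2 or 3 or pMT/VitD replicates 1, 2 or 3. The 2 groups also differed in other tissue markers. The 7 macrophage markers summed to 258 to 422 TPM in pMT/VitD and 707 to 946 in VitD, the 5 fibroblast markers to 636 to 1123 and 1560 to 2652, and the 9 muscle fibre markers to 109610 to 134320 and 94306 to 131210. The 5 adipocyte markers summed to 459 to 718 and 665 to 1326. No macrophage, fibroblast or adipocyte marker was at 0. Trmt112, which overlaps Esrra, was at 0.41 in the same comparison (adjusted p = 0.0642), and Mfn2 with its copy added was also at 0.41 (adjusted p = 0.132). The part of the other cell types and of Trmt112 in the result was not tested, and in bulk tissue fewer cells of a type and less RNA per cell cannot be told apart.

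The scale of the comparison also matters, because the median gene moved with it. Scaled to library size alone, the median of all genes in pMT/VitD versus VitD was -0.34, and Pink1 was at 0.39, Esrra at 0.17, Fis1 at 0.12 and Tfam at 0.01, none of them called, at 33.5% of all genes. Relative to that median they were 0.73, 0.51, 0.46 and 0.35. In the authors' TPM, Pink1 was 251 ± 47.3 in pMT/VitD (n = 4) and 204 ± 52.0 in VitD (n = 3), Esrra 35.8 ± 7.31 and 33.8 ± 3.70, and Fis1 132 ± 6.80 and 130 ± 6.94. Differences of this size in TPM were within the SD of the libraries, and the median of all genes on that scale was -0.43. The rises of Pink1, Esrra and Fis1 are therefore rises relative to the bulk of genes. Surgery versus Control showed the same dependence: by library size the median of all genes was 0.25, 6 of the 10 genes were higher after surgery rather than 1, and their median was 0.01. In pMT versus Surgery the median of all genes was then -0.12 and 5 of the 10 genes were higher rather than 10, and in VitD versus Control it was 0.27, with 5 of the 10 higher rather than none. In pMT/VitD versus Surgery it was -0.33, with 4 of the 10 higher rather than 8, and Esrra was at 0.11, Pink1 at 0.10, Fis1 at 0.05 and Tfam at 0.00.

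**Figure D3:**
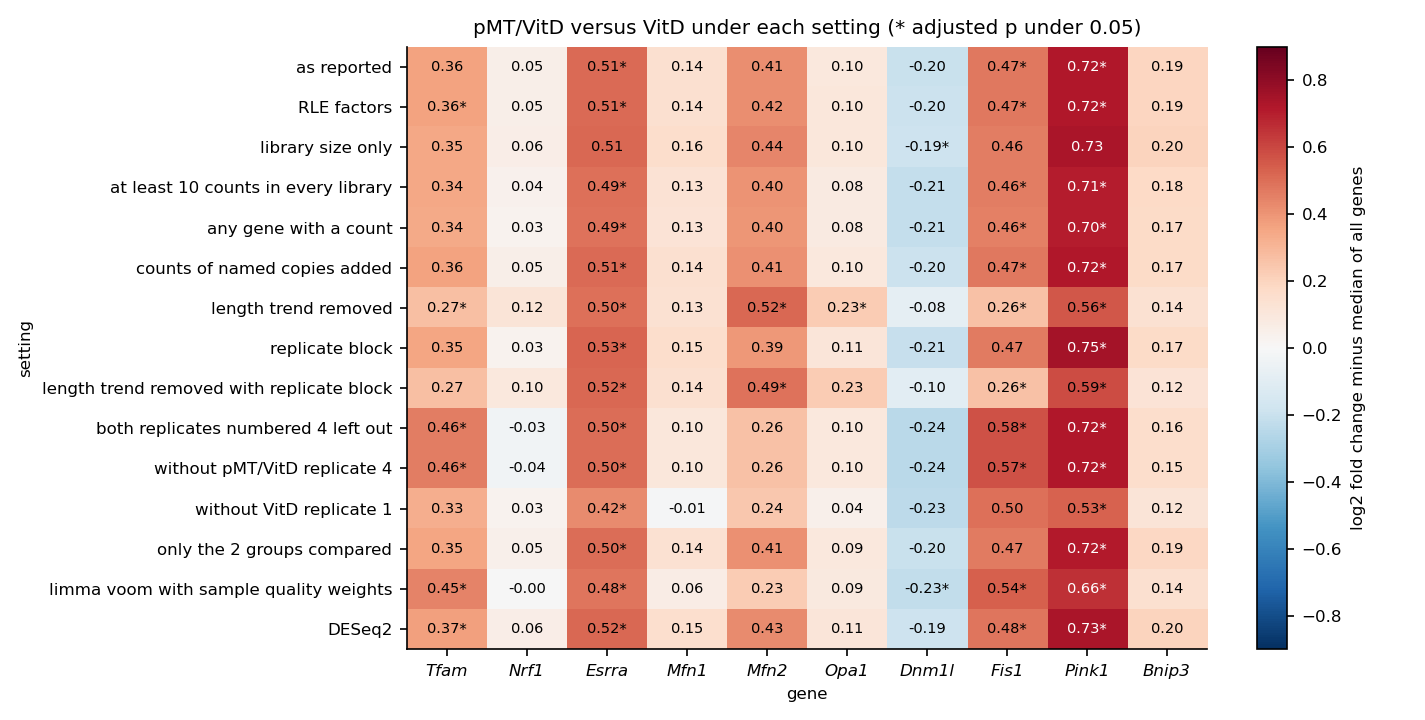
Log2 fold change in pMT/VitD versus VitD minus the median of all genes (colour and number) for each gene (x axis) under 15 settings (y axis), with * for an adjusted p under 0.05. Pink1 lies between 0.53 and 0.75 and Esrra between 0.42 and 0.53 in these 15 settings, while without VitD replicate 3, not drawn, they are at 0.89 and 0.57.

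The log2 fold change of pMT/VitD versus VitD was also set against that of pMT versus Surgery, as the difference of the 2. Surgery rats received no injection while VitD was given per site, so the 2 comparisons are not alike apart from VitD. That difference was largest for Pink1, 0.58 (SE 0.22, unadjusted p = 0.0215, adjusted p = 0.899, quasi-likelihood test), and Fis1 had 0.44 (SE 0.21). None of the 10 passed, so different changes with and without VitD were not shown for any of them. The share of all genes passing in this contrast is not given here, so the result has no background beside it.

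Against Control, none of the 10 genes was called for pMT (background 0%), VitD (8.67%) or pMT/VitD (background 0%), and over all genes 528 for pMT and 496 for pMT/VitD had an unadjusted p under 0.05. DESeq2 called none of all genes in either, and limma voom called 231 (1.34%) and 1865 (10.8%). In pMT and pMT/VitD, none of the 10 genes had such a p or was called by these tools. The VitD libraries had a lower fitted level than Control for all 10 genes, with a median log2 fold change of -0.27 against -0.01. Pink1 was at -0.56 (SE 0.18, adjusted p = 0.0625), Esrra at -0.38 (SE 0.13, adjusted p = 0.0832), Mfn2 at -0.60 (SE 0.23, adjusted p = 0.119) and Bnip3 at -0.34 (SE 0.14, adjusted p = 0.132). Every VitD library was below both Control libraries for 7 genes (Tfam, Esrra, Mfn2, Opa1, Fis1, Pink1 and Bnip3), as for 27.1% of all genes. In TPM, where the median of all genes was 0.30, this held for none of the 10. Opa1 and Dnm1l were then higher in every VitD library. DESeq2 called Esrra and Pink1 (13.7% of all genes called), as did the quasi-likelihood test without VitD replicate 3 (14%), and limma voom called Bnip3, Esrra, Mfn2, Pink1 and Tfam (37.5%). Macrophage sums were 707 to 946 TPM in VitD and 335 to 346 in Control, and fibroblast sums 1560 to 2652 and 955 to 1010, and their part in the result was not tested.

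Besides the 10 genes, 80 other rows with the same roles were looked at, of which 78 were tested. In pMT/VitD versus VitD, 14 of the 78 rose and 1 fell, relative to the bulk of genes. By library size alone the median of all genes was -0.34 here, and values of these 78 under other settings are not given. Of all genes, 21.9% were called and 9.66% were called as higher. Of 29 biogenesis genes 2 rose, Ppard and Polrmt. Fusion and cristae genes gave 5 of 17, all higher, among them Chchd3, a subunit of the complex that shapes cristae, which was 419, 411, 359 and 267 CPM in pMT/VitD and 175, 214 and 228 in VitD (1.77-fold, adjusted p = 0.0112), and the prohibitin Phb (1.28-fold, adjusted p = 0.0326). Fission genes gave 3 of 12, all higher. The Dnm1l receptors Mff (1.42-fold, adjusted p = 0.00721) and Mief2 (1.26-fold, adjusted p = 0.0136) rose, and so did Mtfp1 (1.39-fold, adjusted p = 0.00976), while Dnm1l itself was not called. Mitophagy genes gave 4 higher and 1 lower of 20. The autophagy receptors Optn (1.32-fold, adjusted p = 0.0124) and Sqstm1 (1.31-fold, adjusted p = 0.0269) rose, and the kinase Tbk1 fell (0.786-fold, adjusted p = 0.0152).

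Elsewhere few of these genes were called. VitD versus Control had 4 of 78, all lower relative to the bulk of genes, while 8.67% of all genes were called and 3.2% were called as lower. They were Ppard (0.627-fold, adjusted p = 0.0474), a nuclear receptor of fatty acid oxidation, Gbas (0.643-fold, adjusted p = 0.0361), Mff (0.731-fold, adjusted p = 0.0486) and Optn (0.755-fold, adjusted p = 0.0461). In each other single comparison 0 of 78 were called. The counts at an unadjusted p under 0.05 are given with those of all 17201 genes in brackets. They were 7 in Surgery versus Control (2923), 9 in pMT versus Surgery (2455) and 0 in VitD versus Surgery (139). For pMT/VitD they were 20 against Surgery (4268), 11 against pMT (1737) and 0 against Control (496). In pMT versus Control the count was 1 (528). Across the 5 groups, 5 of 78 passed, against 11.8% of all genes: Mtfp1, Mff, Mief2, Optn and Ppargc1a (adjusted p = 0.0489). Ppargc1a, the coactivator of the biogenesis programme, was 17.2 and 18.3 CPM in Surgery and 21.2, 26.8, 26.1 and 25.7 in pMT. It was 21.8 and 22.9 in Control, 24.7, 24.7, 19.4 and 22.6 in pMT/VitD and 18.6, 19.5 and 20.1 in VitD. Every other library thus lay above both Surgery libraries. For pMT over Surgery, 13.2% of all genes did so. The Ppargc1a log2 fold change in pMT versus Surgery was 0.49 (SE 0.12, adjusted p = 0.0531). Perm1, a muscle regulator that acts with Ppargc1a and Esrra and one of the most abundant of its role, was 82.2 in both Control libraries, 51.2 and 52.3 in Surgery and 73.0, 80.5, 93.0 and 59.7 in pMT (log2 fold change 0.57, SE 0.20, adjusted p = 0.185). The other genes most abundant in their role, with log2 fold changes of 0.46 for Chchd3, 0.33 for Sqstm1, 0.31 for Mief2, 0.12 for Phb, 0.07 for Lonp1, -0.00 for Vcp and -0.24 for Mtfr1l, were not called between pMT and Surgery.

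**Figure D4:**
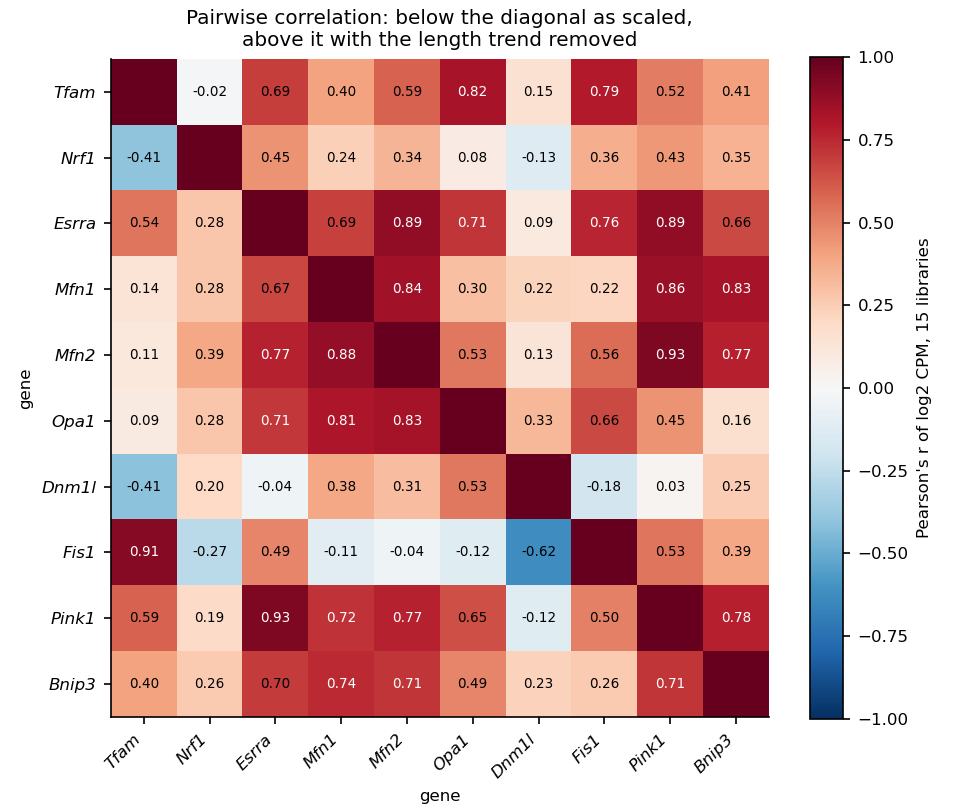
Pearson correlation of log2 CPM over 15 libraries for each pair of the 10 genes, as scaled below the diagonal and with the trend on gene length removed above it. Esrra with Pink1 is at 0.93 below and 0.89 above the diagonal, and Dnm1l with Fis1 at -0.62 below and -0.18 above.

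Over the 15 libraries, some of the 10 genes varied together. The highest Pearson correlations of log2 CPM were 0.931 for Esrra with Pink1, 0.912 for Fis1 with Tfam and 0.881 for Mfn1 with Mfn2, and the lowest was -0.624 for Dnm1l with Fis1. These are descriptions, since the libraries share groups, scaling and depth. Gene length moved with them. Fis1 was 0.391 and Pink1 0.455 of the median effective length of tested genes, while Dnm1l was 1.84 and Opa1 2.27, and after a smooth trend on length was removed from every library the correlation of Dnm1l with Fis1 was -0.183 and that of Opa1 with Tfam went from 0.0897 to 0.821. With that trend removed, Tfam, Esrra, Mfn2, Opa1, Fis1 and Pink1 were called in pMT/VitD versus VitD, as were 25.4% of all genes, and the Fis1 log2 fold change was 0.29 in place of 0.47.

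Outside the set, the gene most like Pink1 among 11399 genes was Npepl1 (Pearson correlation 0.981), followed by Zfp523 (0.979). For Esrra they were Tesk1 (0.967) and Map3k10 (0.957), for Tfam Ssr4 (0.98) and Mtch2 (0.975), and for Fis1 Cuta (0.978) and Stub1 (0.972). Mfn1 was nearest to Prkaa2 (0.974), a catalytic subunit of the energy sensor AMPK, and to Mstn (0.963), the inhibitor of muscle growth. For Mfn2 the copy named above was followed by Alpk3 (0.984). Dnm1l was nearest to Zfr and Mid1 (0.944 each), and Bnip3 to Dlat and Ywhae (0.933 each). Golga4 was among the genes most like Opa1 (0.936). Nrf1 had the weakest likeness, 0.819 with Efnb1 and 0.812 with Smpd1.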

How the data were processed

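Paired-end RNA-seq of rat multifidus gave 15 libraries, grouped by their labels. Per the labels and the study's methods, the authors used Trimmomatic 0.38 for trimming, HISAT2 2.1.0 for alignment to rn6 with NCBI RefSeq annotation and StringTie 2.1.3b for gene quantification. They deposited read counts per gene, used for every test, TPM, used for levels per length, and FPKM, which were not used here. Handling of strand and of multiply aligned reads was not given in the sources used here. Counts were fitted in R 4.3.3 with edgeR 4.0.16 (TMM factors, filterByExpr, robust quasi-likelihood on all 15 libraries, Benjamini-Hochberg adjustment over 17201 genes, called under 0.05). SE and 95% intervals came from that fit. Alternatives were RLE or library-size scaling, 2 other count filters, a replicate block, offsets removing a length trend (lowess span 0.3 on mean count over mean TPM), DESeq2 1.42.0, limma 3.58.1 voom, fits on 2 groups only, leaving out each replicate or both numbered 4, and, chosen after seeing the data, adding the counts of named copies. Likeness used log2 CPM (prior count 2). Scripts were tested on simulated data. Named genes were the 10 members, per role the 2 most abundant other genes and up to 3 called across groups, per comparison up to 3 called, and the 2 genes most like each member, of which 1 is not reported here. Tbk1, Polrmt and the copies were named after their values were seen. The members and lists were chosen with earlier results of these data known.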

Additional observations from a re-analysis of the deposited data

How the results depend on the processing

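The number of the 10 genes called depended on the processing in 7 of the 10 quasi-likelihood comparisons; the cause was not tested. Across the 5 groups (2 called), library size alone, the filter of any gene with a count, the replicate block and the length trend removed with the replicate block each gave 0. These settings called 20.8%, 7.28%, 6.28% and 9.62% of all genes. The length trend removed gave 1 (16.1% of all genes) and both replicates numbered 4 left out gave 4 (29.8%). DESeq2 gave 3 (20.7%) and limma voom gave 8 (66.7%), and leaving out 1 library gave 0 to 2. In pMT/VitD versus VitD (3 called), library size alone gave 1 (Dnm1l, lower), the length trend removed 6, limma voom 5, only the 2 groups compared 2, and RLE factors, DESeq2 and both replicates numbered 4 left out 4 each, and leaving out 1 library gave 2 to 4. Of all genes, RLE factors called 22.3% there and both replicates numbered 4 left out called 32%. The other 5 of the 7 comparisons had 0 called. For pMT/VitD versus Surgery, RLE factors, the filter of at least 10 counts in every library, the length trend removed and DESeq2 gave 1 each, both replicates numbered 4 left out 3 and limma voom 4, with 0 to 2 when 1 library was left out. Of all genes, RLE factors called 7.45%, that filter 9.58% and the length trend removed 10.5%. For VitD versus Control, the length trend removed, both replicates numbered 4 left out and DESeq2 gave 2 each, the length trend removed with the replicate block 1 and limma voom 5, with 0 to 2 when 1 library was left out. The length trend removed called 13.8% of all genes, the same with the replicate block 12.9%, and both replicates numbered 4 left out 15.1%. For pMT/VitD versus pMT, both replicates numbered 4 left out gave 2 and limma voom 4. Surgery versus Control gave 6 with only the 2 groups compared in the fit, where 32.4% of all genes were called, and 5 with limma voom, and pMT versus Surgery gave 5 with limma voom. Adding the counts of the named copies, and the exact test under all its alternatives, moved no count.

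Replicate numbers did not pair the libraries. Same-numbered libraries of pMT/VitD and VitD had correlations of their deviations from group means of 0.331, -0.106 and 0.059, and replicates numbered 4 of pMT/VitD and pMT of -0.806. With the replicate block, Esrra and Pink1 were called in pMT/VitD versus VitD (2 genes) and Fis1 was not (adjusted p = 0.0631). In the comparison across the 5 groups, 0 were called under the block.

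With 2 to 4 libraries a group, the intervals of the log2 fold changes were mostly wider than the changes themselves, although every gene had at least 438 counts in each library. Without both replicates numbered 4, calls among all genes were 716 in place of 266 for Surgery versus Control, 3462 in place of 1279 for pMT/VitD versus Surgery and 2589 in place of 1492 for VitD versus Control.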
